A study of Saccharomyces cerevisiae with 6 samples.

Results

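Budding yeast cells carrying *pol2-REL*, a mutant form of the catalytic subunit of DNA polymerase ε, were profiled by whole-genome sequencing in G1 and 30 min into the following S phase. The first replicated segments of the mutant genome were described from these 2 libraries of the 6 in the series. The mutant strain had the genotype *pol2-REL-3HA::KAN* (isolate X7022-7a, W303 background), in which Pol2 carries the substitutions R567C, E611K and L621F. The wild-type strain had the genotype *Pol2-3HA::KAN* (isolate X7021-4a, same background), so an HA tag on Pol2 was common to all libraries. All cells were grown in YPD at 24 °C, held in G1 with alpha factor and let into S phase with pronase. The mutant at 30 min was set against the mutant in G1. The mutant at 40 min, divided by the same mutant G1 library, and the wild type at 30 min, divided by its own G1 library, served for comparison. Each strain was 1 isolate and each condition 1 library, so differences between conditions were not replicated, no p-values are given, and every interval covers counting error only. Window counts of this kind do not show the substitutions themselves, so the labels were not checked against the genotype.

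Replication of a yeast chromosome begins at origins, which are loaded with the Mcm2–7 helicase in G1 and fire at characteristic times in S phase. A pair of forks leaves each fired origin in opposite directions, so the copied segment widens with time and its centre holds the DNA copied first. DNA polymerase ε synthesizes the leading strand and is also needed to assemble the active helicase at origins. In a profile of S phase reads divided by G1 reads, a fired origin appears as a peak, and a region that forks have not reached appears as a trough. The height of a peak reflects the share of cells in which that site has been copied, and the width reflects how far forks have moved.

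Reads were counted in windows of 1 kb, and the 12070 windows that did not overlap were used, each named below by its chromosome and first base in the sacCer2 build. These windows held 29987832 reads in *pol2-REL* at 30 min and 19156804 in *pol2-REL* G1, with a median of 2482 and 1638 reads per window. A ratio was deposited for 11510 windows, and 560 windows, which include repeats and chromosome ends, had none. The level in what follows is the deposited ratio of 30 min or 40 min reads over G1 reads, in which each chromosome averages 1, after smoothing over neighbouring windows (Gaussian, SD of 2 kb). The scaling removes any difference between whole chromosomes. Chromosome I took 1.42 times its share of reads per window at 30 min and 1.08 times in G1, and chromosome XII 0.929 and 0.983 times. The next shortest after I, which are VI, III and IX, took 1.27, 1.16 and 1.10 times at 30 min. In G1 they took 1.10, 1.03 and 1.04 times. Chromosome V took 1.00 and 1.01 times, and IV, the longest, 0.966 and 0.984 times. The median counting error of the smoothed level was 0.0118. Adjacent windows scattered 1.37 times as much as counting error predicts.

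At 30 min the mutant genome had narrow, scattered peaks on a background that rose towards chromosome ends. The SD of the smoothed profile was 0.0796. The middle 90% of the profile lay between levels of 0.882 and 1.13, the 99th percentile was 1.25, and the lowest point was 0.811, in the window at 580001 on chromosome XIV. A peak was taken as a maximum that stood at least 0.0474 (4 times the counting error) above the higher of the saddles beside it, a drop termed its prominence, and at least 10 kb from the next. By this rule the profile held 219 peaks, or 1.81 per 100 kb. The count depended on the rule. It was 334 with a kernel of 1 kb and 141 with a threshold of 6 times the error. Most peaks were small. Their median prominence was 0.0951, and 102 reached 0.1, 52 reached 0.2 and 20 reached 0.3. The median level at a peak was 1.06, with 21 peaks at or above 1.2 and 4 at or above 1.3. Another 35 peaks had levels below 1 and so were local maxima in low surroundings. The calls nearest the threshold were the windows at 398001 on XI, 103001 on II and 6001 on I just inside, with prominences of 0.0474, 0.0474 and 0.0476. Just outside were those at 730001 on IV, 1028001 on XII and 287001 on III, at 0.0473, 0.0472 and 0.0471. No break separated the weakest calls from the maxima that failed.

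**Figure D1:**
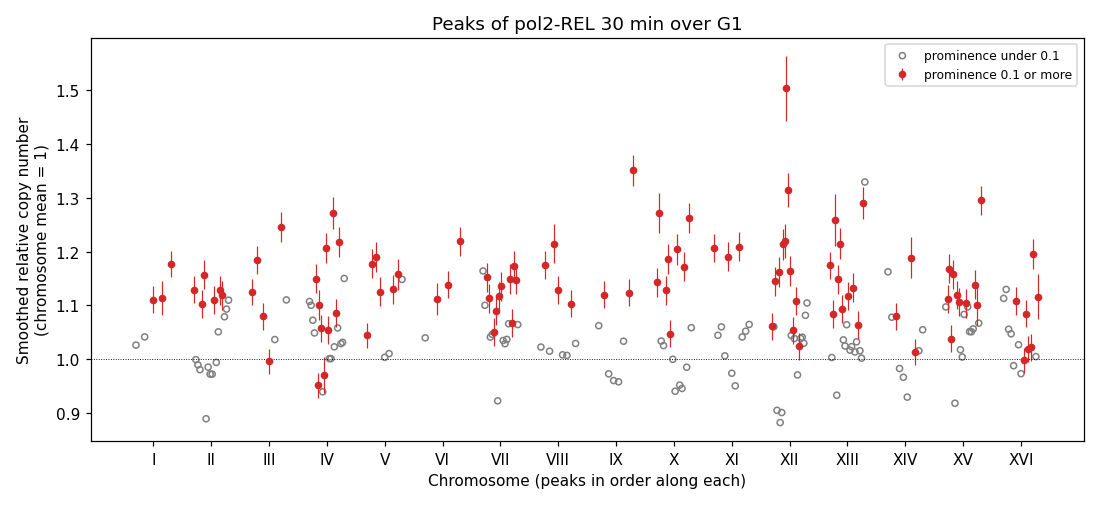
Level at each of the 219 peaks of *pol2-REL* at 30 min over *pol2-REL* G1, by chromosome, with the peaks of each chromosome in order along it. Filled points are the 102 peaks with a prominence of at least 0.1, with 95% counting intervals, open points are the rest, and the point at 1.50 on chromosome XII stands beside the rDNA.

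Most peaks with a prominence of at least 0.1 recurred in the other profiles. In *pol2-REL* at 40 min, which shares the G1 library, 96 of these 102 peaks (94.1%) had a peak within 3 kb, and 52 of the 117 weaker peaks (44.4%) did, where 12.5% of all windows lie that close to a 40 min peak. In wild type at 30 min, which shares no library with the mutant, the counts were 96 of 102 and 46 of 117 (39.3%), against 15.3% of all windows. Taken over all 219 peaks, 148 recurred at 40 min and 142 in wild type. The 60 that recurred in neither had a median prominence of 0.0549. The other profiles had lower thresholds, set from their own counting errors, so weaker maxima could match there. Of the 102, those at 513001 and 619001 on IV and 975001 on XV recurred in neither. The window at 975001 had 22 reads at 30 min and 23 in G1, so its level came from its neighbours. The 102 are called prominent peaks below.

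Most prominent peaks stood higher in the mutant 10 min later. The level was higher at 40 min than at 30 min at 92 of the 102 prominent peaks (90.2%) and at 127 of all 219, against 38.3% of all windows. The median level at the prominent peaks was 1.13 in *pol2-REL* at 30 min and 1.26 in *pol2-REL* at 40 min, and in wild type it was 1.17 at 30 min. Since every chromosome is scaled to a mean of 1, a gain at peaks is balanced by a loss elsewhere in the profile, and these levels do not give the total DNA copied.

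The highest level was at 450001 on chromosome XII, 1.50 with an interval of 1.44 to 1.56 (95%), from 2160 reads at 30 min and 898 in G1. Its prominence, 0.656, was also the largest of the 219. It borders 38 windows, from 451001 to 489000, that were not used. They include the 2 rDNA windows left out of the smoothing, and the rest had no ratio. Its G1 count was low. Between 385001 and 400000 the windows averaged 1991 reads at 30 min and 1504 in G1, and between 440001 and 451000 they averaged 2117 at 30 min and 1023 in G1. The 30 min reads were nearly level over this stretch and the G1 reads fell towards the rDNA, so the level of 1.40 there came with a lower divisor. In wild type, the same 2 blocks averaged 2692 and 2513 reads at 30 min, and 1925 and 1447 in G1, and the second block had a level of 1.18. When peaks between 430 and 520 kb on XII are left out, the highest peak is the one at 411001 on IX. With the wild-type G1 library as the divisor it is the one at 512001 on XII, at 1.41.

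The window at 411001 on IX had 4571 reads in *pol2-REL* at 30 min and 1951 in *pol2-REL* G1, a level of 1.35 (1.32 to 1.38) and a prominence of 0.353. It lies 28.4 kb from the right end of chromosome IX. The level at the same place was 1.63 in *pol2-REL* at 40 min, and the wild type had 1.17 at 30 min. A pair of other high peaks near ends had the same order of levels. The window at 898001 on XIII, 25.9 kb from the end, had 3839 reads at 30 min and 1967 in G1 and a level of 1.33, with 1.55 at 40 min and 1.07 in wild type. Its prominence was only 0.0924, over a saddle at a level of 1.24, so it was not among the prominent peaks. The window at 1053001 on XV, 37.8 kb from the end, had 3770 and 1814 reads and a level of 1.30, with 1.50 at 40 min and 1.10 in wild type. Its prominence was 0.213. These 3 sites were chosen for their height in the mutant at 30 min, so the lower wild-type values are a description.

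The remaining high peaks lay inside the chromosomes, and several matched their wild-type level more closely. The window at 913001 on IV had 3316 reads in *pol2-REL* at 30 min and 1518 in *pol2-REL* G1, a level of 1.27 and a prominence of 0.403, the second largest of all. Its level was 1.39 at 40 min, and the wild type had 1.29 at 30 min. The window at 204001 on X, with 2840 and 1307 reads, had a level of 1.27, with 1.37 at 40 min and 1.29 in wild type. The window at 815001 on XIII, with 3250 and 1555 reads, reached 1.29, with 1.41 at 40 min and 1.16 in wild type. The window at 684001 on X, with 3641 and 1744 reads, reached 1.26, with 1.32 at 40 min and 1.16 in wild type. The 10 were completed by 511001 on XII, on the far side of the rDNA (2820 and 1485 reads, 1.31, against 1.67 at 40 min and 1.44 in wild type), and 184001 on XIII (1359 and 743 reads, 1.26). All 10 were higher at 40 min, all 10 lay within 3 kb of a 40 min peak, and 9 lay within 3 kb of a wild-type 30 min peak. The exception, 450001 on XII, was 4 kb from one. Height and prominence picked different peaks, since only 4 of the 10 highest were among the 10 most prominent. The other 6 most prominent were at 373001 on XII (0.353), 561001 on XIV (0.344), 286001 on XIII (0.342), 555001 on IV (0.330), 447001 on XI (0.329) and 1165001 on IV (0.327).

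The reads of both libraries were compared at each peak, since a low G1 count raises a ratio as a high S phase count does. The mean of 3 windows at the peak was divided by the mean of the windows 8 to 12 kb away on both sides. Of the 207 peaks where this could be done, 175 had more 30 min reads at the centre than at the flanks, with a median of 1.08 times, and 48.1% of all windows do. G1 reads were lower at the centre at 159 of 207, with a median of 0.975 times, where 48.5% of all windows are. By the medians, the 30 min reads differed more from their flanks than the G1 reads did. At the prominent peaks, 92 of 97 had more 30 min reads at the centre, with a median of 1.21 times, and the G1 median was 0.983 times. The peaks were chosen on the ratio of these same reads, so the counts describe them and test nothing. The 5 exceptions were at 513001 on IV, 216001 on VIII, 184001 and 735001 on XIII, and 665001 on XV. At 184001 on XIII, 1 of the 10 highest peaks, the centre had 0.998 times the flanking reads at 30 min and 0.700 times in G1, beside windows with no ratio.

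**Figure D2:**
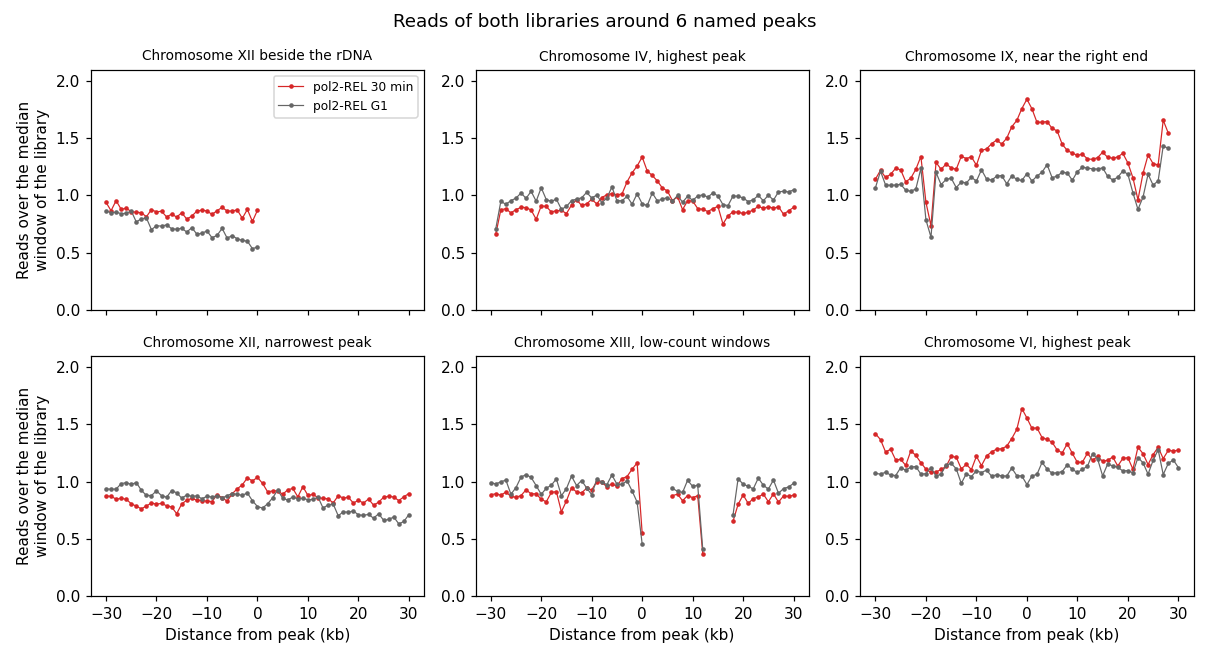
Reads per window around 6 peaks, divided by the median window of each library, against the distance from the peak in kb, for *pol2-REL* at 30 min (red) and *pol2-REL* G1 (grey), with gaps for windows with no ratio. On chromosomes IV, VI and IX the red line rises to a point at the peak, where the grey line has no such rise. On IX both lines also dip 19 kb to the left of the peak. Beside the rDNA on XII the grey line falls while the red line stays nearly level.

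Peaks were narrow. Width was measured midway between a peak and the level of its saddle on the 84 prominent peaks with no missing window within 10 kb, and its median was 9.62 kb (95% interval of the median, 9.29 to 10.2 kb). The kernel alone has a width of 4.71 kb midway down, which widens a peak. A high saddle on either side cuts the measured width short, so these widths are not limits for the underlying shape. The narrowest peak, at 413001 on XII, was 5.17 kb wide, with 2574 reads at 30 min and 1280 in G1 and a level of 1.22. Its saddle towards the rDNA stood at 1.08, and the level on the other side fell to 0.860. The next were at 622001 on II (5.71 kb), 147001 on I (5.95 kb), 204001 on VII (6.61 kb) and 132001 on III (6.98 kb). These 5 stood little above their saddles. The prominences lay between 0.102 and 0.144, and the one on III stood at a level of 0.996. This width depends on the saddle, and the widest values, 91.5 kb at 665001 on XV, 74.9 kb at 619001 on IV and 38.5 kb at 550001 on II, were at peaks with prominences of 0.145, 0.108 and 0.154.

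On the smoothed profile, the left and right sides of these 84 peaks had similar median widths. Smoothing with a symmetric kernel evens out the sides, and reads pooled over many cells do not show single forks. The median distance from the centre to the edge was 4.84 kb on the left and 4.91 kb on the right, and the longer side was a median of 1.20 times the shorter. It was over 1.5 times at 19 of the 84 and over 2 times at 6. The most lopsided was at 1016001 on IV, with 5.95 kb on the left and 23.8 kb on the right. The peak at 447001 on XI had 5.83 and 12 kb, and the one at 407001 on IV leaned the other way, with 10.7 and 4.08 kb.

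The average of 47 of these 84 peaks, with no other peak or chromosome end within 30 kb, gave the shape without smoothing. In *pol2-REL* at 30 min the mean stood at 1.22 in the central window and 0.948 at 16 to 20 kb, a height of 0.275, and was 4.75 kb wide midway down. At 5 kb it had dropped to 1.02, where wild type stood at 1.05. In *pol2-REL* at 40 min the same windows had a mean height of 0.373 and a width of 8.61 kb, and in wild type at 30 min a height of 0.290 and a width of 8.28 kb. At 10 kb the mutant at 30 min stood at 0.963 and wild type at 0.965, over flanks of 0.948 and 0.931. The levels were thus alike at 10 kb, but wild type still stood further above its own flank, as it did at 5 kb. Centring on maxima of the mutant 30 min profile favours a high central window there. When the peaks were centred on the wild-type positions (45 peaks) the widths were 5.27 kb in the mutant at 30 min, 9.37 kb in the mutant at 40 min and 7.50 kb in wild type at 30 min, and when centred on the mutant 40 min positions (44 peaks) they were 5, 8.88 and 8.29 kb. The mutant at 30 min had the smallest width under the 3 centrings. Its height was 0.266 against 0.318 in wild type when centred on the wild-type positions, and 0.273 against 0.30 when centred on the mutant 40 min positions, so the heights were closest with its own centring. In raw reads, the central window averaged 2990 at 30 min and 1581 in G1, and the windows 9 kb to the left and right averaged 2465 and 2499 at 30 min, and 1648 and 1667 in G1. The mean peak thus held both a rise in 30 min reads and a smaller dip in G1 reads.

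**Figure D3:**
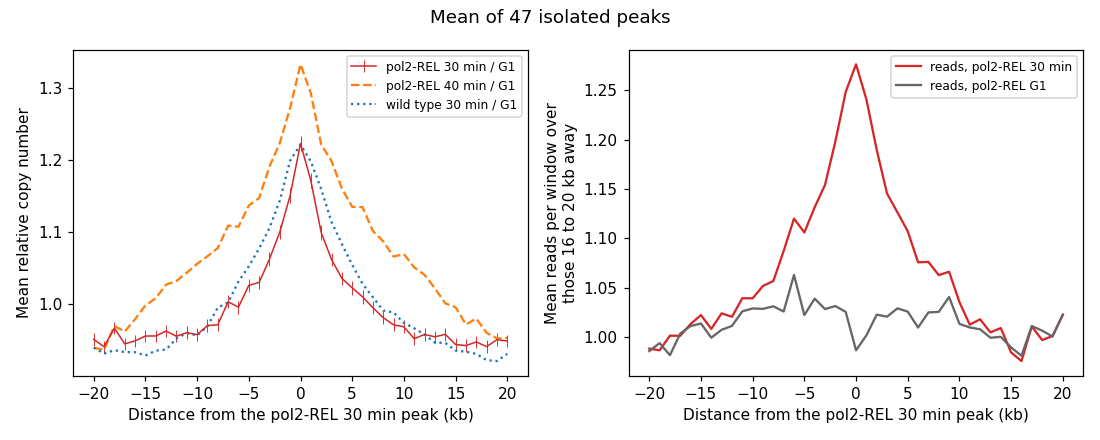
Mean of 47 isolated prominent peaks against the distance from the peak in kb. Left, unsmoothed relative copy number in *pol2-REL* at 30 min (with 95% counting intervals), *pol2-REL* at 40 min and wild type at 30 min; right, reads of *pol2-REL* at 30 min and in G1 over their mean at the flanks. The 30 min mutant curve falls to 1.02 at 5 kb, below the 1.14 of the mutant at 40 min and the 1.05 of wild type.

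Neighbouring peaks were a median of 42 kb apart (38 to 49 kb), with quartiles of 28 and 61 kb over 203 distances. There were 18 distances under 20 kb, 73 of 20 to 40 kb, 58 of 40 to 60 kb, 42 of 60 to 100 kb and 12 of 100 kb or more. For the prominent peaks alone the median was 71.5 kb (60 to 82 kb), with a range of 12 to 294 kb over 86 distances. Of these, 17 were under 40 kb and 23 were 100 kb or more. The closest pairs of all were at 705001 and 715001 on VII, 10 kb apart, and at 327001 and 338001 on VII, 11 kb apart. At 12 kb followed 147001 and 159001 on I and 369001 and 381001 on II. Of these 4 pairs, the one on I was made of 2 prominent peaks, at levels of 1.11 and 1.11 with 4017 and 4024 reads at 30 min and 1675 and 1732 in G1. The peak at 159001 had no peak of its own within 3 kb at 40 min. Windows within 10 kb of a peak made up 37.1% of the genome, those within 20 kb 63.4% and those within 40 kb 87.0%.

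**Figure D4:**
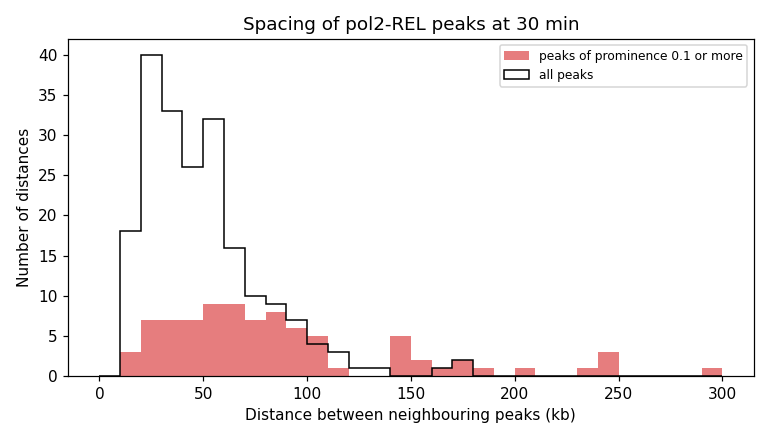
Distances between neighbouring peaks on the same chromosome in kb, for the 102 prominent peaks (filled, 86 distances) and for all 219 peaks (line, 203 distances). The medians are 71.5 and 42 kb, and the prominent peaks have a tail out to 294 kb.

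Every chromosome had at least 3 prominent peaks. The density of all peaks ran from 1.27 per 100 kb on chromosome XIV, with 10 peaks and the widest median spacing at 61 kb, to 2.38 per 100 kb on XIII, with 22 peaks. Chromosome IV, the longest, had 22 peaks, 10 of them prominent, and XII had 23, 11 of them prominent. Chromosomes I, VI, IX, XI and XIV had 3 prominent peaks each. On 12 of the 16 chromosomes the highest peak was also the most prominent. Besides those already named, the highest were at 199001 on VI (3862 reads at 30 min and 1595 in G1, level 1.22), 225001 on III (3720 and 1658, 1.25), 216001 on VIII (2545 and 1149, 1.21) and 777001 on XVI (3084 and 1511, 1.20). On the other chromosomes the highest reached 1.21 on XI (447001), 1.19 on V (145001) and XIV (561001), 1.18 on I (176001), 1.17 on VII (834001) and 1.16 on II (254001). Levels can be ranked across chromosomes only under the scaling used. With 1 mean for the whole genome, the highest peak was the one at 176001 on I, at 1.52, where 4184 reads at 30 min stood against 1743 in G1.

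The profile was raised towards chromosome ends. On the 9 chromosomes over 700 kb, the median level was 1.14 within 20 kb of an end, 1.09 at 20 to 50 kb, 1.04 at 50 to 100 kb, 1.01 at 100 to 200 kb, 0.973 at 200 to 300 kb and 0.966 beyond. Windows over 10 kb from a peak gave the same gradient, with 1.14 at the ends and 0.950 in the interior. Both libraries had more reads near ends. The median window had 3213 reads at 30 min within 20 kb of an end and 2341 beyond 300 kb, and in G1 1831 and 1598. No peak of these chromosomes was called within 20 kb of an end, where 199 of the 360 windows had a ratio and a maximum in the outermost of them cannot be called, and the density was 1.11 per 100 kb at 20 to 50 kb against 2.02 beyond 300 kb. Over all 16 chromosomes, 9 of the 219 peaks lay within 50 kb of an end, 4 of them prominent. That zone is 50 kb at each of 32 ends in a genome of 12.07 Mb. G1 reads are the divisor, so more of them near ends lower the level there, and the 30 min reads differed more between these zones. The cause of the gradient was not tested.

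**Figure D5:**
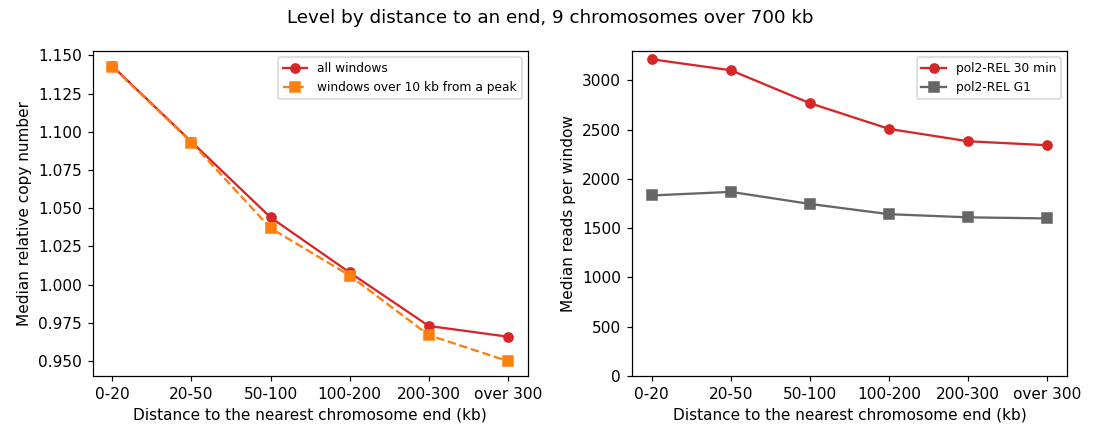
Median relative copy number (left) and median reads per window (right) by distance to the nearest chromosome end in kb, on the 9 chromosomes over 700 kb. The level is 1.14 within 20 kb of an end and 0.966 beyond 300 kb, and *pol2-REL* 30 min reads (red) drop more between these zones than G1 reads (grey).

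Stretches with a level of at least 1.2 covered 217 windows (1.88%) in 30 runs, and 12 of these runs, with 128 of the windows (59.0%), lay within 60 kb of an end. For scale, that zone is 60 kb at each of 32 ends in a genome of 12.07 Mb, less the windows with no ratio. Of the 9 runs that held no peak, 8 lay there, some of them highest in the outermost window with a ratio, where no peak can be called. The longest was at the left end of XIV, where 36 windows from 7001 to 43000 had a mean level of 1.26 and averaged 3290 reads at 30 min and 1634 in G1. The same windows had 1.36 in *pol2-REL* at 40 min, against 1.04 in the wild type at 30 min. On XVI, 13 windows from 931001 to 944000 had a mean of 1.30 in the mutant at 30 min and 1.40 at 40 min, and 0.965 in wild type. On the right end of XII, 16 windows from 1050001 to 1066000 had 1.27 at 30 min, 1.28 at 40 min and 0.898 in wild type. On the right end of XIII, the 24 windows from 893001 to 917000, which include the peak at 898001, had 1.29, 1.51 and 0.989. These ends were chosen for a high level in the mutant at 30 min, which by itself favours the mutant over wild type.

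The stretches with no peak were long but depended on what counts as a peak. With all 219 peaks, 16 stretches of at least 100 kb covered 1937 kb, or 16% of the genome, on 10 chromosomes. The longest was 175 kb on IV, from 619500 to 794500, with a mean level of 0.987 and 2366 reads per window at 30 min against 1588 in G1. It holds the maximum at 730001 that fell just short of the threshold. Next came 172 kb on IV from 1339500 to 1511500 (mean level 1.08), 161 kb on XIV from 160500 to 321500 (0.987), 130 kb on XV from 489500 to 619500 (0.992) and 127 kb on VII from 888500 to 1015500 (0.973). The second of these lay above the mean of its chromosome, so the absence of a peak was not the absence of raised levels. The other 5 of the longest 10 were 119 kb on IV from 1220500, 115 kb on V from 173500, 110 kb on IX from 105500, and 106 kb at the right end of XI and 105.5 kb at the left end of IX. The stretch on V was the lowest of the 10, at a mean of 0.940. Counting weak peaks, *pol2-REL* at 40 min had 21 of its 210 peaks in these stretches, in 13 of the 16. Wild type at 30 min had 36 of its 258, in all 16. The threshold of each profile was set from its own counting error, 0.0115 at 40 min and 0.00991 in wild type. These errors are below the 0.0118 of the mutant at 30 min, so weaker maxima counted as peaks there. The numbers of weak peaks are therefore not directly comparable between profiles.

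Prominent peaks left far more of the genome empty. There were 23 stretches of at least 150 kb with none, covering 5379 kb (44.6% of the genome) on 13 chromosomes, and 11 of them ran to a chromosome end. The longest was the left 418.5 kb of XVI, with a mean level of 1.04 and 2691 reads per window at 30 min against 1653 in G1. It held 5 weak peaks, of prominence up to 0.0942. Next were the right 366 kb and the left 328.5 kb of IV, both at a mean of 1.03, and the left 321.5 kb of XIV at 1.06. The longest between prominent peaks was 294 kb on IV, from 619500 to 913500, which lies directly before the highest peak of that chromosome, and 240 kb on XIV from 321500 to 561500 was the lowest of the 10 longest, at a mean of 0.933. The median distance from an end to the first prominent peak was 114.5 kb over the 32 ends, with a range of 28.4 to 418.5 kb. Inside these stretches, less 5 kb at each edge, lay 35 of the 144 prominent peaks of *pol2-REL* at 40 min, in 21 of the 23 stretches. Of the 141 of wild type at 30 min, 24 lay there, in 17 of the 23. The part searched was thus somewhat less than 44.6% of the genome. The left 418.5 kb of XVI had 3 in *pol2-REL* at 40 min and 3 in wild type.

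The rDNA repeats of XII, which hold the ribosomal RNA genes and an origin in each repeat, had a ratio in 2 windows. The window at 459001 had 63414 reads at 30 min and 19601 in G1, and the one at 460001 had 179317 and 54488. Their unsmoothed levels were 2.17 and 2.21 in the mutant at 30 min, 2.14 and 1.99 in the mutant at 40 min, and 1.12 and 1.09 in the wild type at 30 min. Both windows hold many repeats mapped on one another, at 12 and 33.3 times the median G1 window. Copying and the number of repeats mapped there cannot be told apart. They were left out of the smoothing and of all peaks above.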

How the data were processed

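Per the labels and the study's methods, paired-end reads were mapped to sacCer2, and the submitters' processing notes name cutadapt, BWA 0.7.8 and Picard 1.110. The authors deposited unnormalized read counts per 1 kb window, starting every 500 bp. They also deposited a ratio of S phase over G1 counts, in which each chromosome averages 1 with no factor for DNA content, and a smoothed form. Counting errors treat reads as independent, since the sources do not say whether both mates were counted.

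From non-overlapping windows, the scaled ratio was smoothed (Gaussian, 2 kb SD, at least 50% of the kernel weight present) and peaks were called with SciPy 1.17.1. The prominence threshold of each profile was set from its own counting error. Windows over 5 times the median G1 count (2, the rDNA) were left out. Errors came from both counts by the delta method, with 95% intervals, and medians have exact order-statistic 95% intervals. Shares of all windows are over 11527 with a smoothed level. Mean levels, reads and peaks of other profiles inside a stretch with no peak leave out 5 kb at each of its edges, while its length is given in full. The named windows were the 10 highest peaks, the 5 narrowest with a prominence of at least 0.1 and no missing window within 10 kb, the highest on each chromosome, the 10 longest stretches, the 3 closest pairs, the 3 peaks on each side of the threshold and the rDNA. Other named windows (raised ends, lopsided, widest and unmatched peaks) were chosen after their values were seen. Members and lists were chosen with earlier results of these data known. Prominence by 3 or 6 errors, other kernels, scalings, filters, offsets and the wild-type G1 library were tried. Computations used Python 3.11.15, numpy 2.4.6 and pandas 2.3.3. Genes and origins were not named, since no annotation of this build was used here.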

Additional observations from a re-analysis of the deposited data

How the results depend on the processing

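The 5 summary values were 219 peaks, spacing 42 kb, width 9.35 kb, highest level 1.50 and longest stretch 175 kb. Of 13 other settings listed at the start, a least distance of 5 kb gave the same values, and one of 15 kb gave 211 peaks, 43 kb and a width of 9.44 kb. Division by a running median, 1 of 3 settings added after seeing the data, gave 229 peaks, 40 kb, a width of 9.76 kb and a highest level of 1.45. A kernel of 1 kb gave 334 peaks, a spacing of 30 kb, a width of 6.58 kb and a longest stretch of 150 kb, and a kernel of 3 kb gave 169 peaks and 52, 11.4 and 310 kb. The deposited smoothed ratio gave 156 peaks, a spacing of 53 kb, a width of 12 kb, a highest level of 1.58 and a longest stretch of 308 kb. A threshold of 3 errors gave 297 peaks, a spacing of 33 kb and a longest stretch of 111 kb. A threshold of 6 errors gave 141 peaks, 58 kb, a width of 9.98 kb and 328.5 kb, and one scaled by the scatter of adjacent windows gave 152 peaks, 57.5 kb, a width of 9.96 kb and 311 kb. Without a count filter there were 256 peaks, the spacing was 36.5 kb, the highest level 1.99 and the longest stretch 172 kb. With at least 1000 reads the highest level was 1.39. With the wild-type G1 library it was 1.41, and the longest stretch 186.5 kb. A genome-wide mean gave a longest stretch of 311 kb, and windows offset by 500 bp gave 227 kb. Also added after seeing the data, leaving out the rDNA flanks gave a highest level of 1.35 and a longest stretch of 189 kb, and a prominence of at least 0.1 gave 102 peaks, 71.5 kb, a width of 9.97 kb and 418.5 kb. Of 397 recomputed levels of 25 named windows, 107 moved by more than their 95% counting interval. No paired analysis was possible because each condition has 1 library. Of the 107 moves, 18 came with the kernel of 1 kb, all higher, and 17 with the kernel of 3 kb, all lower. The genome-wide mean gave 21, of which 9 were higher and 12 lower. No cause beyond the change of setting was tested. No value covers the variation between cultures, and at this depth the counting error of 0.0118 on a smoothed level limits what can be told apart from a flat profile.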
